A study of Mus musculus with 9 samples.

Results

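Mitochondrial ribosomal protein genes were compared between the embryonic and the adult mouse pituitary. The members were all protein-coding genes whose symbol in the GENCODE M21 annotation, the equivalent of Ensembl 96, starts with Mrpl or Mrps followed by a digit. This rule found 78 genes of the 55450 in the count tables, and every one of the 55450 gene identifiers matched the annotation.

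The mitochondrial ribosome, or mitoribosome, is built from a large and a small subunit and translates the few messenger RNAs that mitochondrial DNA encodes, which specify core subunits of the respiratory chain. Its ribosomal RNAs come from mitochondrial DNA, whereas all of its proteins are encoded in the nucleus, made in the cytosol and imported. Part of these proteins descend from the ribosome of the bacterial ancestor and the others were added during the evolution of mitochondria. Growing and dividing cells need new mitoribosomes, and hormone-secreting cells depend on mitochondria for energy.

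The study collected Rathke's pouch, the embryonic precursor of the anterior pituitary, from 7 Sox2Egfp/+ embryos at embryonic day 13.5, and the pituitary without its posterior lobe from 2 adults at postnatal week 8. Every animal was bred on the mixed 129Sv/c57BL6J background, each library came from a single animal, and both sexes were present in each group. The embryos carried an Egfp reporter at the Sox2 gene, and no such allele was stated for the adults. Poly(A) RNA was sequenced as strand-specific paired reads. The p-values reported measure the spread between animals, and with 2 adults they lean on the spread among the embryos.

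The embryo libraries held between 16738863 (embryo 1) and 28537311 (embryo 2) counted read pairs, and the adult libraries held 36421545 and 31191117. Embryos 1 and 4 stood apart from the other libraries. Genes took only 59.7% and 62.8% of their read pairs. In the remaining embryos this share was 73.9% to 80%, and the adults had 84% and 83.7%. The red blood cell list of 8 genes, led by Hbb-y in the embryos and by Hbb-bs in the adults, summed to 178374 CPM (the usual depth-scaled counts, with library sizes scaled by TMM) in embryo 1 and 223596 CPM in embryo 4. The sum was 6372 to 19819 CPM in the remaining embryos, while the adults had 763 and 1976 CPM. Of these 8 genes, 7 were higher in the embryo (24.0% of all genes tested). After the correction for length and GC content described below, 3 of the 8 were (24.8%). Because embryos 1 and 4 stood apart, results are also given without them.

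The tissue labels were checked against marker genes. Transcription factor genes of Rathke's pouch were higher in the embryo, with log2 fold changes (embryo over adult) of 5.77 (SE 0.59, adjusted p = 5.2e-06) for Hesx1, 4.29 (SE 0.73, adjusted p = 2.9e-04) for Lhx4 and 1.70 (SE 0.40, adjusted p = 0.003) for Pitx1. Sox2 was higher in the adult, at -0.70 (SE 0.25, adjusted p = 0.028). The embryos carried the Egfp reporter at this very gene, so stage and genotype cannot be told apart for it. The 7 hormone genes summed to 870 to 1919 CPM in the embryos and to 152399 and 159973 CPM in the adults. The highest mean was that of Cga in the embryos and that of Gh in the adults, although Prl was above Gh in adult 1. None of these genes was at 0 in all libraries of a group.

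Markers of other cells were counted beside the 24.0% of all genes higher in the embryo and the 27.4% higher in the adult. The gene named first in each list has its highest mean in the embryos, and the gene named second its highest mean in the adults. Of 8 genes of dividing cells (Mcm5, Pcna), 6 were higher in the embryo, with summed levels of 728 to 1160 CPM in the embryos and 276 and 254 CPM in the adults. Of 6 mesenchyme genes (Col3a1, Col1a2), 4 were higher in the embryo, with 658 to 2333 CPM against 717 and 458 CPM. Of 6 endothelial genes (Emcn, Plvap), 3 were higher in the embryo (139 to 502 CPM against 172 and 112 CPM). Of 6 macrophage genes (C1qb, Csf1r), 2 were higher in the embryo (126 to 311 CPM against 96.6 and 149 CPM), while after the correction for length and GC content described below none was higher in the embryo and 1 was higher in the adult. Of 7 neural and hypothalamic genes, led by Tubb3 in both groups, 3 were higher in the embryo and 1 in the adult (117 to 467 CPM against 117 and 90.3 CPM). The 3 were Rax, Nkx2-1 and Sox1, at log2 fold changes of 4.83, 4.04 and 3.89, and the 1 was Gfap at -3.99. The part of these cell types in the results below was not tested, and in bulk tissue more cells of a type cannot be told apart from more RNA per cell.

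Fold changes between these groups depended on transcript length, and the members are short. Across the 15575 tested protein-coding genes the Spearman correlation of log2 fold change with the length of the longest protein-coding transcript was -0.44. This is a correlation across genes, and genes do not count as replicates. The shortest length decile (102 to 1273 bp) had a median log2 fold change of 1.49 and the longest one of -1.49. The median length was 1339 bp for the tested members and 3110 bp for all tested protein-coding genes, and 35 members lay in the shortest decile. Each member was therefore also set against the 500 other tested protein-coding genes nearest to it in length. A difference of library quality and a difference of biology that both follow length cannot be told apart here.

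Nearly all mitochondrial ribosomal protein genes were higher in the embryo. Their summed level ranged from 4508 to 8650 CPM with a median of 7293 CPM in the 7 embryos, and was 2177 and 1999 CPM in the adults, so every embryo lay above both adults (mean 6935, SD 1546, n = 7, against 2088, SD 126, n = 2). Of the 77 members that passed the filter of a mean count of at least 5, 72 were higher in the embryo at an adjusted p below 0.05 (24.0% of all 19371 genes tested were). Among the 500 genes nearest in length to each member, 42.3% were so on average. A total of 27 members were also more than 4-fold higher, the call used in the study (11.3% of all genes tested, and 20.5% on average among genes of the same length). With library size only 12 members were called, as were 1739 of all genes tested. When the fold change itself was tested against 4, no member passed, while 613 of all genes tested were higher in the embryo. The median log2 fold change of the members was 1.70, a 3.26-fold difference, against -0.04 for all genes tested.

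No member was higher in the adult in edgeR's test at an adjusted p below 0.05 (27.4% of all genes tested) or called there with the fold change of 4 (14.6%). At an unadjusted p below 0.05 edgeR had 1 such member, Mrpl1. DESeq2 had none at an adjusted p below 0.05 and 1 at an unadjusted p below 0.05. In 72 members the lowest embryo lay above the highest adult (26.2% of all genes tested), and 70 of these also passed the test. In 1 member, again Mrpl1, the highest embryo lay below the lowest adult (32.9% of all genes tested).

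**Figure D1:**
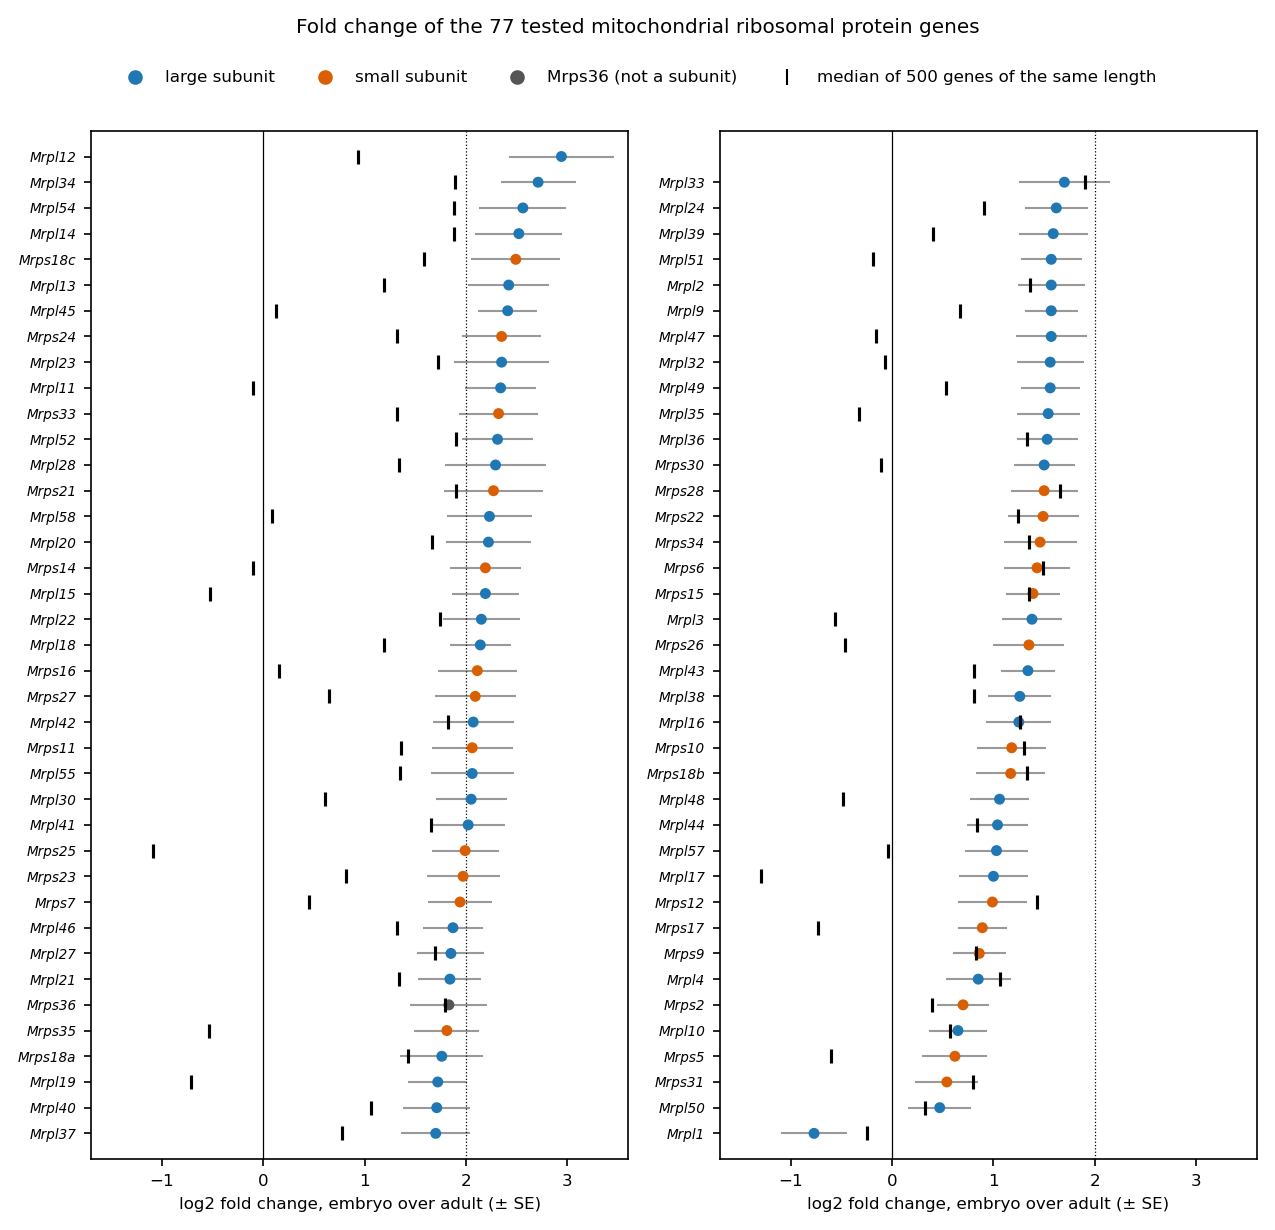
Log2 fold change (embryo over adult, x axis) with its standard error for each of the 77 tested members, ordered by value, in 7 embryos and 2 adults. Vertical ticks give the median of the 500 genes nearest in transcript length, and the dotted line is a fold change of 4. All members but Mrpl1 lie above 0, and 67 lie to the right of their tick.

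Without embryos 1 and 4, 74 of the 77 members were higher in the embryo (26.9% of all genes tested) and 20 were called with the fold change of 4 (11.5%). All 20 were among the 27 called with every library. Without these embryos no member was higher in the adult at an adjusted p below 0.05 (29.9% of all genes tested) or called there (16.2%). The median log2 fold change was then 1.63.

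The embryos differed among themselves, and embryo 7 was the lowest for most members. Relative to the mean of the adults, the median member was at a log2 difference of 2.10 in embryo 6 and 1.94 in embryo 4, and at 1.41 in embryo 5 and 1.11 in embryo 7. Embryo 6 held the highest embryonic value of 31 members, embryo 4 of 23 and embryo 3 of 17, while embryo 7 held the lowest value of 54 of the 77. The length dependence differed between embryos too. The Spearman correlation between transcript length and the log2 difference from the adult mean, across genes, was -0.49 in embryo 6 and -0.33 in embryo 7. After genes of the same length were subtracted within each embryo, the median member stood 0.71 (embryo 7) to 1.13 (embryo 4) above them on the log2 scale, so the spread between embryos became smaller and each embryo remained above both adults.

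**Figure D2:**
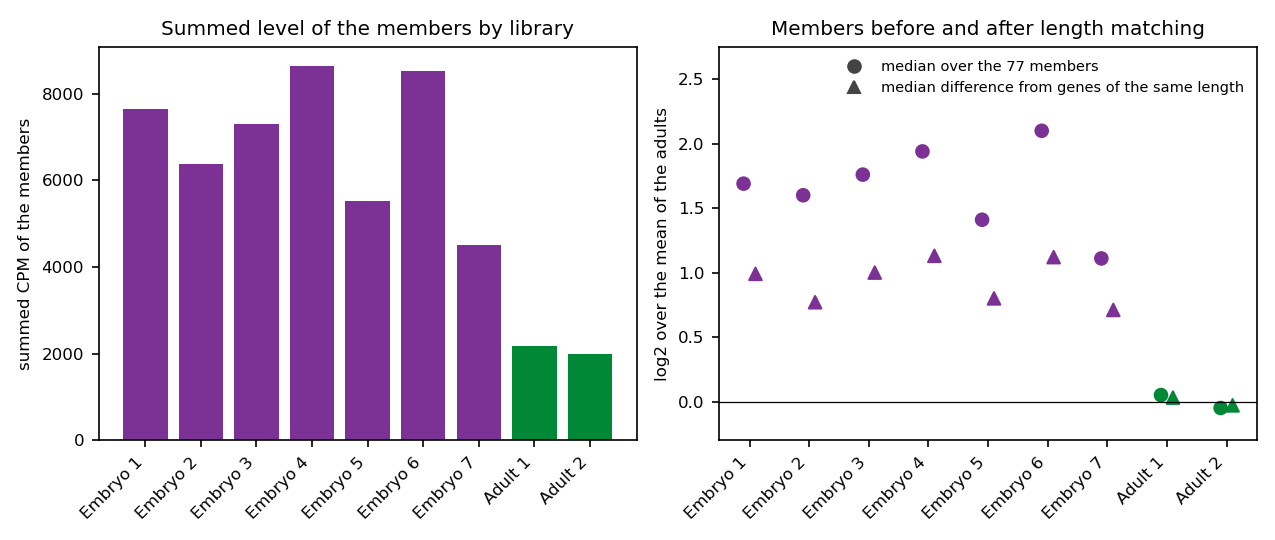
Left, summed CPM of the 78 members in each library. Right, the median member relative to the mean of the adults on the log2 scale, before (circles) and after (triangles) subtracting the 500 genes nearest in length. Every embryo lies above both adults on each measure, and embryo 7 is the lowest embryo on all of them.

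Against genes of the same length, 67 members had the larger fold change and 10 the smaller. The median difference was 0.71 on the log2 scale, where the same-length genes themselves had a median of 0.91. The typical member stood below 29% of its 500 genes, 36 members stood below at most 25% of them, and 12 below at most 10%. With the longest transcript, the part shared with other genes of the same length was thus larger than the remaining difference. This depended on the length used, and with merged exon length the median difference was 1.17. The median difference was 0.68 without embryos 1 and 4.

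The size of this remainder depended on which transcript length was used. The 23 members of at most 1000 bp had a median log2 fold change of 2.06 and a median difference of 0.37. The 29 members above that and up to 2000 bp had 1.62 and 0.65, and the 25 longer members had 1.56 and 1.81. Across the 77 members the Spearman correlation of log2 fold change with annotated length was -0.38, and long members stood furthest from other genes of their length. With the correction for length and GC content given below it was 0.69, where that of all tested protein-coding genes was 0.01, so the corrected values of the members rise with annotated length. Of the 25 longer members, 8 also have a complete coding transcript of at most 2000 bp, and gene counts do not show which transcript was present. With the shortest complete coding transcript of every gene in place of the longest, chosen after seeing the data, the median difference was 1.26 and 75 members stood above genes of their length.

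**Figure D3:**
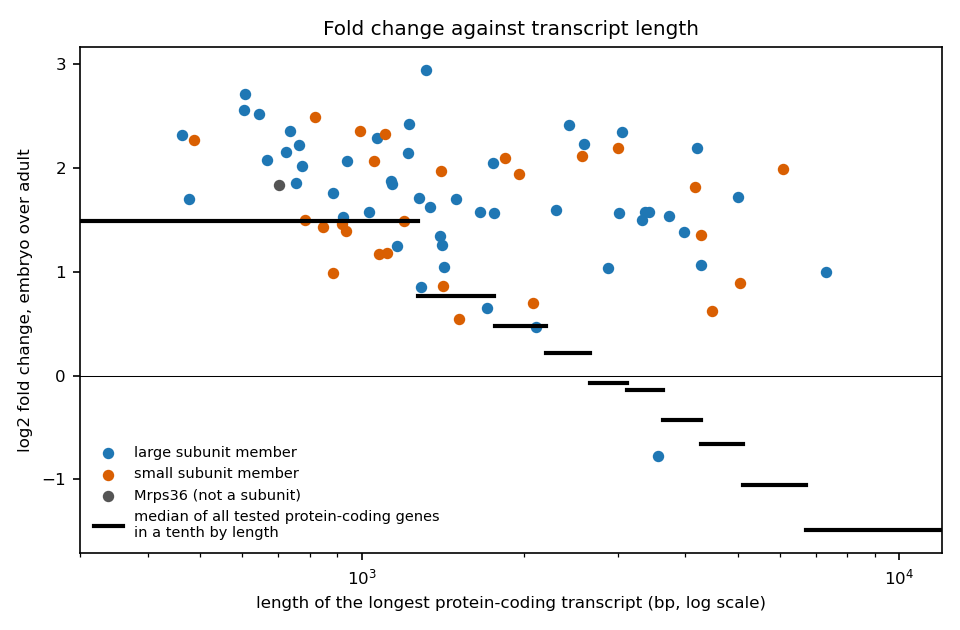
Log2 fold change of each tested member (y axis) against the length of its longest protein-coding transcript on a log scale (x axis). Black bars are medians of all tested protein-coding genes in 10 length deciles, cut at the edges of the plot, and fall from 1.49 to -1.49. Most members lie above the bar of their length, most widely on the right.

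With smooth offsets that take the dependence on transcript length and GC content out of every library, 48 of the 77 members were higher in the embryo (24.8% of all genes tested) and 17 were called with the fold change of 4 (8.40%). The test found 1 member higher in the adult, Mrps12 (23.4% of all genes tested), and none called there (12.0%). Of the 72 members higher without the correction, 46 were also higher with it. Of the 27 members called without the correction, 6 were also called with it. The median log2 fold change was 0.74 for the members and 0.05 for all genes tested. The correction lowered the value of all 52 members of at most 2000 bp, and raised that of 21 of the 25 longer ones. The largest corrected values were those of Mrps25 (3.41), Mrps14 (3.05) and Mrpl15 (3.02), whereas Mrpl52 and Mrps21, with transcripts of 463 and 488 bp, came to 0.15 and 0.10.

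The largest uncorrected log2 fold change was that of Mrpl12, a protein of the flexible L7/L12 stalk of the large subunit, which recruits translation factors. Its level ranged from 122 to 497 CPM with a median of 287 CPM in the embryos, and was 39.7 and 39.1 CPM in the adults. All 7 embryos lay above both adults, although they spread more than 4-fold among themselves, with embryos 4 and 1 highest and embryo 7 lowest. The log2 fold change was 2.94 (SE 0.52, adjusted p = 4.2e-04), 2.01 above genes of the same length. It was 2.59 (SE 0.41) without embryos 1 and 4 and 1.82 (SE 0.39, adjusted p = 0.0023) with the correction for length and GC content. Only 7.8% of the 500 genes of its length had a larger value.

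The list holds 2 other proteins of this stalk, and the stalk members were not compared with each other by a test. Mrpl11, at the base of the stalk, ranged from 90.1 to 197 CPM with a median of 126 CPM in the embryos and was 29.9 and 26.5 CPM in the adults, with no overlap. Its log2 fold change was 2.34 (SE 0.35, adjusted p = 1.2e-04) and 2.51 (SE 0.40) after correction. Mrpl10, which anchors the L7/L12 copies, ranged from 56.8 to 102 CPM with a median of 70.6 CPM and was 51 and 42.8 CPM in the adults. The groups did not overlap, yet its log2 fold change of 0.65 (SE 0.29, adjusted p = 0.07) missed the threshold. It passed when embryo 1, 4 or 6 was left out, with adjusted p of 0.048, 0.045 and 0.038. After correction it was -0.10 (SE 0.21, adjusted p = 0.7), on the other side of 0.

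RefSeq promoter windows (GRCm38.p6, 250 bp before to 50 bp after a transcript start) were found for 69 of the 78 members. Each window was searched on both strands for NRF1 (GCGCATGC), ETS factors such as GABPA (CCGGAAG), YY1 (AAGATGGC) and the E-box (CACGTG). The first 3 are known from promoters of nuclear genes for mitochondrial proteins. The windows below belong to the 5 members with the largest log2 fold changes and to the 3 furthest below genes of their length, in each case among those with a window. Capitals mark the matched letters or their reverse complement, and each sequence is written in the direction of transcription.
Mrpl12: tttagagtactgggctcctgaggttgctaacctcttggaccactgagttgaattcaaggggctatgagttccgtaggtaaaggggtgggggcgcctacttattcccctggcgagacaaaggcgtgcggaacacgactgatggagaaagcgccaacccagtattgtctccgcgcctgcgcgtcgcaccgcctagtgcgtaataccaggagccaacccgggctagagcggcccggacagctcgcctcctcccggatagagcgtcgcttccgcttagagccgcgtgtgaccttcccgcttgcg
Mrpl34: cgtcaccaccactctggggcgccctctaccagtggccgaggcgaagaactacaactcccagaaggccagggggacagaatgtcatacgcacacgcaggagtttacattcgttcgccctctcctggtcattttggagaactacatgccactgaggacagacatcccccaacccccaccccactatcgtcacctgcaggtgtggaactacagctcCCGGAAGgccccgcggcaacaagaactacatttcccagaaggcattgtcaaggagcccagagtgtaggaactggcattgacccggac
Mrpl14: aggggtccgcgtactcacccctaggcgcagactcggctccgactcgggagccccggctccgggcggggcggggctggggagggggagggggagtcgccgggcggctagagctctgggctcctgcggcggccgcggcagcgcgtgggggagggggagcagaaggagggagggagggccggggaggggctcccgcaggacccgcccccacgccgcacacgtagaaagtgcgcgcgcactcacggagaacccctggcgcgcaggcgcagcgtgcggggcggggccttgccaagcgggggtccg
Mrps18c: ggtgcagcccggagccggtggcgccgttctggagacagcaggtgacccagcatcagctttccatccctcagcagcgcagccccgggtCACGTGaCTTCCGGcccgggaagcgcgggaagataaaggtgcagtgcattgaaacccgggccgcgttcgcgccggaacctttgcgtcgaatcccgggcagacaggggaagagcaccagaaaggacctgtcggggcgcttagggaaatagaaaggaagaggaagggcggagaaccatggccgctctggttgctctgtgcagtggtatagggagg
Mrpl45: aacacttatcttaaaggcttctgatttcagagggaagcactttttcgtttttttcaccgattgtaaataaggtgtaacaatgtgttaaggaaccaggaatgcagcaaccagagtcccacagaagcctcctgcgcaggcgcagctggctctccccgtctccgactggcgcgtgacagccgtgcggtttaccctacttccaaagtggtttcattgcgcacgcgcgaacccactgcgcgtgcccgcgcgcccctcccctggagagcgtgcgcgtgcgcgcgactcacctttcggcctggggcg
Mrpl1: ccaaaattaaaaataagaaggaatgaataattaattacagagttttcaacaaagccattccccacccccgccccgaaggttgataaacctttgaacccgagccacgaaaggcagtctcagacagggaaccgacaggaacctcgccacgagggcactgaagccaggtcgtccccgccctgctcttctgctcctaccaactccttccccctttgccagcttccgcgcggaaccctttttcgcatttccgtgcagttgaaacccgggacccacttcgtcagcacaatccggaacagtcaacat
Mrps12: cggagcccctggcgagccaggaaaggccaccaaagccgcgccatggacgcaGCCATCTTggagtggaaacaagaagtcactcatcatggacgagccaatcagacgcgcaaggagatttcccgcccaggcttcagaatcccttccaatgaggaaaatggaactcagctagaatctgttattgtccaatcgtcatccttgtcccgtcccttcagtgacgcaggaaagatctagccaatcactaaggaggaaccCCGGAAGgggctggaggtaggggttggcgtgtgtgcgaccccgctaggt
Mrps31: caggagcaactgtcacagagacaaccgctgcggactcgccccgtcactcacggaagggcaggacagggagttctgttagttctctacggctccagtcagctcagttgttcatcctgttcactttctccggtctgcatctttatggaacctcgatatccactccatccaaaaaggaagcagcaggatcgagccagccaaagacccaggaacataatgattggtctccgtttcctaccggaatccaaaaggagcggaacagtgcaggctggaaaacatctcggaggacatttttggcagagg
The positions of these windows were chr11:120484387-120484686 (plus strand) for Mrpl12, chr8:71464676-71464975 (plus strand) for Mrpl34, chr17:45686099-45686398 (plus strand) for Mrpl14, chr5:100798509-100798808 (plus strand) for Mrps18c, chr11:97315466-97315765 (plus strand) for Mrpl45, chr5:96209865-96210164 (plus strand) for Mrpl1, chr7:28741772-28742071 (minus strand) for Mrps12 and chr8:22411090-22411389 (plus strand) for Mrps31. The windows of Mrpl12, Mrpl14 and Mrpl45 and those of Mrpl1 and Mrps31 held none of the 4 letter strings.

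The ETS letters were in the windows of 26 of the 69 members (37.7%), against 9.93% of the 27025 genes with a window and 17.4% of the 12062 tested protein-coding genes among them. The YY1 letters were found in 12 members (17.4%, against 3.19% and 4.54%) and the NRF1 letters in 8 (11.6%, against 3.05% and 5.32%). The E-box was found in 5 members (7.25%, against 8.09% and 11.1%). At least 1 of the 4 was present in 40 of the 69 members (58%) and in 21.3% of all genes. Members with the ETS letters had a median log2 fold change of 1.84 and those without 1.59. For YY1 these medians were 1.73 and 1.66, and for NRF1 1.56 and 1.80. None of these differences was tested, and a match is a run of letters only.

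Among the other large subunit proteins inherited from bacteria, Mrpl34, a small protein bound to ribosomal RNA, ranged from 46.6 to 114 CPM with a median of 99.3 CPM in the embryos, and was 14.1 and 14.2 CPM in the adults. Mrpl14, which lies at the interface of the subunits, ranged from 48.7 to 146 CPM with a median of 102 CPM, against 21.3 and 16.8 CPM. Mrpl13 ranged from 125 to 291 CPM with a median of 146 CPM, against 37.4 and 29.9 CPM. In all 3 genes every embryo lay well above both adults. Their log2 fold changes were 2.71 (SE 0.37, adjusted p = 5.7e-05), 2.52 (SE 0.43, adjusted p = 3.0e-04) and 2.42 (SE 0.40, adjusted p = 2.3e-04). After correction they were 0.82, 0.70 and 1.33, below the fold change of 4 used for a call. They stood 0.82, 0.64 and 1.23 above genes of their length, so much of the difference of Mrpl34 and Mrpl14, with transcripts of 607 and 645 bp, was shared by other genes of their length.

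**Figure D4:**
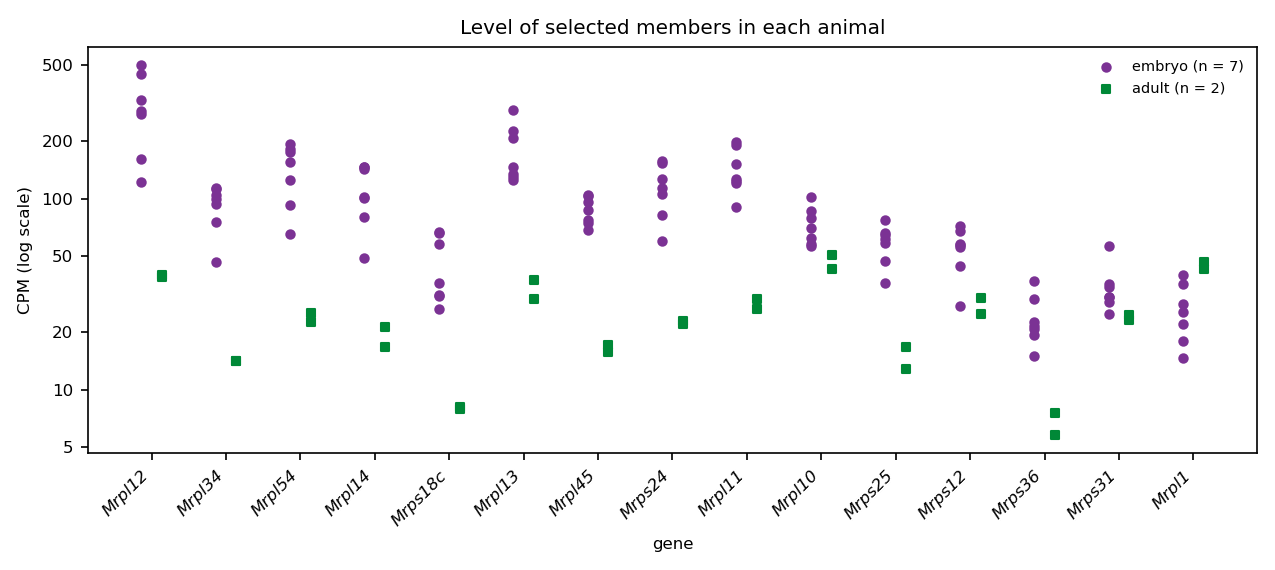
CPM on a log scale (y axis) of 15 members in each of the 7 embryos (circles) and 2 adults (squares). Embryos and adults are apart for all of them except Mrps12, and Mrpl1 is the only one with the adults on top.

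Members grouped here at the exit of the peptide tunnel, where the growing chain leaves the large subunit, had higher transcript levels in the embryo. These were 6 of 6, 3 of them called, where 24.0% of all genes tested were higher and 11.3% called. Their median log2 fold change was 1.89. After correction 5 were higher (24.8%), with a median of 1.44. The groups of Mrpl17, a protein of this site, overlapped, with embryo 7 at 64.4 CPM and adult 1 at 67.1 CPM. Mrpl45, which ties the tunnel exit to the inner membrane, had the smallest adjusted p of all members. It ranged from 68.4 to 105 CPM with a median of 87.1 CPM in the embryos and was 17.1 and 15.7 CPM in the adults. The embryos were close to each other and far above both adults. The log2 fold change of 2.41 (SE 0.29, adjusted p = 2.1e-05) changed little with the correction (2.22, SE 0.30) and stood 2.29 above genes of its length. Mrpl47, another protein of this site, had a level of 12.7 CPM per kb in the embryo and 4.3 CPM per kb in the adult. The test gave it a log2 fold change of 1.57 (SE 0.35, adjusted p = 0.0019). Its exons overlap those of Ndufb5 and Actl6a on the opposite strand, and 71.9% of the pairs at its exons lay on that strand.

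The 5 members grouped here under the central protuberance, a crown of the large subunit, all had higher transcript levels in the embryo (24.0% of all genes tested). This grouping may leave out other proteins of that structure. Of the 5, 1 was called (11.3%), and their median log2 fold change was 1.71. After correction 4 were higher (24.8%), with a median of 0.66. Mrpl58 is a peptidyl-tRNA hydrolase that frees stalled mitoribosomes and is also built into this crown. It ranged from 73.1 to 237 CPM with a median of 168 CPM in the embryos and was 34.2 and 32.3 CPM in the adults. The groups were clearly apart, and the log2 fold change was 2.23 (SE 0.42, adjusted p = 6.4e-04), or 2.14 (SE 0.48) after correction.

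The subunits and origins were not compared by a test, and their counts stand beside 24.0% of all genes higher in the embryo and 11.3% called. Of the 50 tested large subunit members 47 were higher in the embryo and 19 called, with a median log2 fold change of 1.71. Of the 26 small subunit members 24 were higher and 8 called, with a median of 1.50. The large and the small subunit stood 0.71 and 0.81 above genes of their length. Their medians after correction were 0.72 and 0.87. Of the genes for proteins inherited from bacteria, 43 of 46 were higher and 19 called (median 1.71). Of those for proteins specific to mitochondria, 28 of 30 were higher and 8 called (median 1.64). These origins stood 0.71 and 0.80 above genes of their length. After correction the counts of members higher in the embryo were 33 for the large and 15 for the small subunit, and 27 for bacterial and 21 for mitochondria-specific proteins (24.8% of all genes tested). Mrpl54 had the largest uncorrected log2 fold change of the proteins specific to mitochondria. It ranged from 65.1 to 192 CPM with a median of 155 CPM in the embryos against 25.1 and 22.5 CPM in the adults, without overlap (log2 fold change 2.56, SE 0.43, adjusted p = 2.6e-04; 0.71, SE 0.20, after correction).

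In the small subunit, Mrps24, whose protein lies at the messenger RNA entry, ranged from 60.3 to 157 CPM with a median of 114 CPM in the embryos and was 22.8 and 22 CPM in the adults. The groups were apart, with a log2 fold change of 2.35 (SE 0.39, adjusted p = 2.3e-04), or 0.94 (SE 0.21) after correction. Its exons share 226 bp with Urgcp on the same strand, where pairs are ambiguous and were not counted. The genes of the S18 family are paralogs whose proteins went to different places of the mitoribosome, and their changes were not compared by a test. Mrps18c, in the classical S18 position, ranged from 26.4 to 67 CPM with a median of 36.3 CPM in the embryos against 8.14 and 7.9 CPM, with no overlap and a log2 fold change of 2.49 (SE 0.44, adjusted p = 4.1e-04). Mrps18a, which sits in the large subunit, had a log2 fold change of 1.76 (SE 0.41, adjusted p = 0.0029) and Mrps18b one of 1.17 (SE 0.34, adjusted p = 0.01). After correction Mrps18c kept 1.46 (SE 0.22), whereas Mrps18a came to 0.22 and Mrps18b to -0.12. Both also lost their adjusted p when adult 2 was left out (0.055 and 0.13), as did Mrps18b without adult 1 (0.052).

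The members furthest above genes of the same length all have long annotated transcripts. Mrps25, a small subunit protein annotated at 6073 bp, ranged from 36.2 to 77.1 CPM with a median of 61.2 CPM in the embryos and was 12.8 and 16.7 CPM in the adults. Every embryo was above both adults, at a log2 fold change of 1.99 (SE 0.33, adjusted p = 2.6e-04), and genes of its length had a median of -1.09. Its exons overlap 4590 bp of Nr2c2 on the opposite strand, and 44% of the pairs at its exons lay on that strand. Mrpl15, Mrpl11, Mrpl19 and Mrps35, structural proteins of the large and the small subunit, stood 2.71, 2.44, 2.43 and 2.34 above genes of their length. Their log2 fold changes were 2.19 (SE 0.33), 2.34 (SE 0.35), 1.72 (SE 0.29) and 1.81 (SE 0.32). Their groups did not overlap either. For Mrpl15 and Mrpl11, annotated at 4203 and 3045 bp, complete coding transcripts of 1569 and 813 bp exist.

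At the other end, Mrpl1, a protein of the L1 stalk by which used transfer RNA leaves the ribosome, was the only member with a value below 0. It ranged from 14.7 to 39.9 CPM with a median of 25.4 CPM in the embryos and was 46.6 and 42.8 CPM in the adults. All 7 embryos lay below both adults, which no other member showed. The log2 fold change of -0.77 (SE 0.33, adjusted p = 0.066) missed the threshold, and it passed without embryo 6 (-0.84, adjusted p = 0.048) and without embryo 7 (-0.86, adjusted p = 0.04). After correction for length and GC content it was 0.12 (SE 0.23, adjusted p = 0.68), on the other side of 0.

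Mrps12, a protein of the decoding centre, gave opposite results with and without the correction. It ranged from 27.5 to 72.3 CPM with a median of 57.4 CPM in the embryos and was 30.2 and 24.8 CPM in the adults. In 6 of the 7 embryos it was above both adults, and embryo 7 lay between them. The log2 fold change was 0.99 (SE 0.34, adjusted p = 0.026), but genes of its length had a median of 1.43, and the corrected value was -0.54 (SE 0.18, adjusted p = 0.028). Without the correction Mrps12 no longer passed the test when adult 1 or adult 2 was left out, at log2 fold changes of 1.12 and 0.84.

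Mrps31, Mrpl4 and Mrpl33 came next, only slightly below genes of their length, at differences of -0.26, -0.21 and -0.21. Mrps31, a small subunit protein, ranged from 25 to 56.4 CPM with a median of 30.7 CPM against 23.1 and 24.5 CPM, with all embryos above the adults by a narrow margin (log2 fold change 0.54, SE 0.31, adjusted p = 0.16). Mrpl4, a large subunit protein, ranged from 39.8 to 87.7 CPM with a median of 60.3 CPM against 36.5 and 36.4 CPM (log2 fold change 0.85, SE 0.32, adjusted p = 0.04). Mrpl33, a short protein of bacterial origin, ranged from 28.6 to 81.9 CPM with a median of 37.9 CPM against 15 and 16 CPM (log2 fold change 1.70, SE 0.45, adjusted p = 0.0065). The embryos were above the adults in all 3, but Mrpl4 and Mrpl33 no longer passed the test when either adult was left out. Mrpl4 was then at 0.84 each time, and Mrpl33 at 1.63 without adult 1 and 1.73 without adult 2. Mrpl4 also missed the threshold without embryo 2 (adjusted p = 0.061) or embryo 5 (0.051). Corrected values were 0.26, -0.18 and -0.12, and none passed the test. Mrps5 and Mrpl50, also subunit proteins, complete the 5 members that did not pass the test, with log2 fold changes of 0.62 (SE 0.32, adjusted p = 0.12) and 0.47 (SE 0.31, adjusted p = 0.22). With the correction both passed, at 1.42 (adjusted p = 0.0016) and 0.71 (adjusted p = 0.016). Without embryos 1 and 4 Mrps5 passed (0.82, adjusted p = 0.013) and Mrpl50 did not (0.58, adjusted p = 0.14). They were named after their values were seen.

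Mrpl44, a protein with a fold of the RNase III family, had a log2 fold change of 1.04 (SE 0.30, adjusted p = 0.01), close to the 0.84 of genes of its length and lost without adult 1 (adjusted p = 0.069) or adult 2 (0.12). After correction it did not pass (0.09, adjusted p = 0.73). Mrps36 carries the name of a small subunit protein but is now known as a component of the 2-oxoglutarate dehydrogenase complex. It ranged from 15.1 to 37.2 CPM with a median of 21.6 CPM in the embryos and was 7.54 and 5.82 CPM in the adults. The groups did not overlap, and its log2 fold change of 1.83 (SE 0.38, adjusted p = 0.0012) was close to that of genes of its length (1.79). After correction it did not pass (0.43, adjusted p = 0.087). Pseudogenes named after Mrps36 are annotated, so pairs matching them equally were not counted.

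Mrpl53, a large subunit protein, was the only member that did not pass the filter. It had 0 counts in all 9 libraries, where a count of 0 allows up to 3 counts, or 0.0729 to 0.22 CPM. All 695 bp of its longest transcript lie inside exons of Gm42688 on the same strand, so any pair from it was ambiguous and could not be counted. Its level is therefore unknown. In all, 8 members share exon sequence with another gene on the same strand and 3 have named pseudogenes, and their values are less certain. Of the 10 tested members of these kinds, all were higher in the embryo (24.0% of all genes tested), with a median log2 fold change of 1.63 against 1.71 in the other 67. After correction 5 of the 10 were higher (24.8%), with a median of 0.80.

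Although the proteins of a mitoribosome are mostly present in equal numbers, their transcripts were not. Divided by the length of the longest transcript, the embryo means of the 76 tested subunit genes ran from 7.39 CPM per kb (Mrpl1) to 297 (Mrps21) with a median of 51.5. The adult means ran from 2.43 (Mrps25) to 61.4 (Mrps21) with a median of 17. The ratio of the 90th to the 10th percentile was 9.03 in the embryo and 4.71 in the adult. Fold changes here fell with transcript length, and the larger embryo ratio cannot be told apart from that dependence. Mrps21, Mrpl20 and Mrpl52, from both subunits, had the highest levels (297, 265 and 253 CPM per kb in the embryo). Averaged over the groups, Mrps25, Mrpl19 and Mrpl47 had the lowest (9.67, 12.6 and 12.7 CPM per kb in the embryo). Levels per kb are understated where a shorter transcript was the expressed one. Across the 77 genes, mean CPM in embryo and adult had a Spearman correlation of 0.57.

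The members lie on 17 chromosomes, with 11 on chromosome 11. A feature that the rule did not use was a shared start region. Of the 77 tested members 33 (42.9%) have another protein-coding gene starting within 1000 bp on the opposite strand, against 14.2% of the tested protein-coding genes. Mrpl46 and Mrps11, whose starts lie 412 bp apart, are both members and had log2 fold changes of 1.87 and 2.06. Of the 30 tested partner genes that are not members themselves, 11 were higher in the embryo and 4 in the adult (24.0% and 27.4% of all genes tested), with a median log2 fold change of 0.62. Sars2, the mitochondrial seryl-tRNA synthetase, starts 172 bp from Mrps12 and had 1.49 (SE 0.40, adjusted p = 0.007), which was lost without adult 2 (adjusted p = 0.09). Helq, a DNA helicase gene that starts 29 bp from Mrps18c, was lower in the embryo at -0.75 (SE 0.29, adjusted p = 0.042). Helq was chosen after its values were seen.

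Of the 5 genes for mitoribosomal proteins with other symbols, 4 were higher in the embryo with and without the correction (24.8% and 24.0% of all genes tested). Chchd1 ranged from 112 to 328 CPM with a median of 157 CPM in the embryos against 40.4 and 42.9 CPM (log2 fold change 2.31, SE 0.45, adjusted p = 8.1e-04). Gadd45gip1 and Aurkaip1 had 2.08 (SE 0.39, adjusted p = 6.5e-04) and 1.91 (SE 0.33, adjusted p = 3.2e-04), both without overlap of the groups. Dap3, a GTP-binding protein of the small subunit, had 0.83 (SE 0.28, adjusted p = 0.023), which was lost without either adult (adjusted p = 0.14 and 0.16). Ptcd3, a pentatricopeptide repeat protein, had -0.16 (SE 0.33, adjusted p = 0.7), with overlapping groups. After correction Chchd1, Gadd45gip1, Aurkaip1, Dap3 and Ptcd3 were at 0.65, 1.74, 0.69, 1.45 and 0.23.

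The ribosomal RNAs of the mitoribosome were measured after poly(A) selection. The small subunit RNA mt-Rnr1 ranged from 606 to 1568 CPM with a median of 811 CPM in the embryos and was 198 and 286 CPM in the adults (log2 fold change 2.08, SE 0.48, adjusted p = 0.0027). The large subunit RNA mt-Rnr2 ranged from 826 to 3166 CPM with a median of 1293 CPM against 475 and 773 CPM (log2 fold change 1.53, SE 0.55, adjusted p = 0.031). Neither overlapped between the groups, and both were named after their values were seen. Of the 14 tested mitochondrially encoded genes in all, 4 were higher in the embryo and 1 in the adult (24.0% and 27.4% of all genes tested), and 5 and 2 after correction. The 1 without correction was mt-Nd5, a subunit of complex I, at -1.31 (SE 0.39, adjusted p = 0.012, lost without either adult at 0.07 and 0.064). The 2 largest increases, mt-Nd3 at 2.93 (SE 0.81, adjusted p = 0.0076) and mt-Co3 at 2.56 (SE 0.57, adjusted p = 0.0019), rest on levels of at most 5.92 and 23.4 CPM. Only uniquely mapped pairs were counted, so the levels of the mitochondrially encoded genes are uncertain. The value of mt-Nd3 was lost without adult 1 (adjusted p = 0.098). The most abundant, mt-Co1, overlapped between the groups, as did the sum of the list, at 20344 to 53653 CPM in the embryos and 25750 and 27930 CPM in the adults.

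Genes that serve the mitoribosome were described in the same way. Of 28 genes for mitoribosome assembly and ribosomal RNA modification, 17 were higher in the embryo and 1 in the adult (24.0% and 27.4% of all genes tested). The median log2 fold change was 0.96, or 0.37 against genes of the same length. After correction 13 were higher in the embryo and 3 in the adult (24.8% and 23.4%). Rpusd3, a pseudouridine synthase, and Malsu1, an assembly factor of the large subunit, led with 2.36 (SE 0.44, adjusted p = 5.9e-04) and 1.90 (SE 0.31, adjusted p = 2.2e-04). Grsf1, an RNA-binding protein of mitochondrial RNA granules, was lower in the embryo, at 40.5 to 70.4 CPM with a median of 51.2 CPM against 132 and 121 CPM. The groups did not overlap (log2 fold change -1.24, SE 0.25, adjusted p = 0.0011), and the corrected value was -1.31.

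Of 15 genes for mitochondrial translation factors and related proteins, 7 were higher in the embryo and 2 in the adult (24.0% and 27.4% of all genes tested). After correction these were 5 and 1 (24.8% and 23.4%). The median log2 fold change without correction was 0.25. Slirp and Lrpprc, which form a complex that binds mitochondrial messenger RNA, went in opposite directions. Slirp ranged from 103 to 251 CPM with a median of 135 CPM in the embryos against 40.7 and 40.5 CPM (log2 fold change 2.05, SE 0.41, adjusted p = 9.5e-04). Lrpprc ranged from 12.8 to 33.9 CPM with a median of 17.7 CPM against 59.3 and 59.6 CPM (log2 fold change -1.57, SE 0.31, adjusted p = 9.2e-04). Neither gene had overlapping groups, and with the correction they kept their directions at 2.53 and -0.86. The elongation factor gene Tufm was higher in the embryo (1.63, SE 0.33, adjusted p = 0.0011). Guf1, a GTPase of mitochondrial translation, was lower (-1.54, SE 0.35, adjusted p = 0.0022), though not after correction (-0.71, adjusted p = 0.097).

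Of 20 genes for mitochondrial aminoacyl-tRNA synthesis, 6 were higher in the embryo and none in the adult (24.0% and 27.4% of all genes tested). Their median log2 fold change was 0.55. After correction 13 were higher (24.8%), with a median of 0.88. These genes are longer, and they stood 0.85 above genes of their length. Pars2, the prolyl-tRNA synthetase, had 1.44 (SE 0.31, adjusted p = 0.0018). Of 10 genes for mitochondrial DNA maintenance and transcription, 3 were higher and none lower (median 0.66), where 24.0% and 27.4% of all genes tested were. After correction 6 were higher and none lower (median 0.70, with 24.8% and 23.4% of all genes tested). Ssbp1, which binds single-stranded DNA, and the elongation factor gene Tefm each had 1.26 (SE 0.33 for both, adjusted p = 0.0059 and 0.0061). Ssbp1 no longer passed the test when adult 1 or adult 2 was left out (1.22 and 1.26), nor did Tefm without adult 2 (1.12). After correction Ssbp1 was at 2.50 (adjusted p = 2.5e-05) and Tefm at 0.74 (adjusted p = 0.0081).

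Among 10 regulators of mitochondrial biogenesis, 2 were higher in the embryo and 3 in the adult, near the shares of all genes tested (24.0% and 27.4%). The coactivator gene Ppargc1a was at 0.282 to 1.15 CPM with a median of 0.659 CPM in the embryos and at 8.8 and 9.44 CPM in the adults, far apart (log2 fold change -3.82, SE 0.47, adjusted p = 2.4e-05). The transcription factor gene Nrf1 was higher in the embryo, at 27.2 to 80 CPM with a median of 52.2 CPM against 21 and 19.2 CPM (log2 fold change 1.39, SE 0.36, adjusted p = 0.0049, but 0.065 without adult 2). The subunits of GABP, which binds the ETS letters, went apart. Gabpa was lower in the embryo (-1.64, SE 0.39, adjusted p = 0.0029; -0.32 after correction, adjusted p = 0.42) and Gabpb1 was higher (0.69, SE 0.27, adjusted p = 0.046). Gabpb1 no longer passed the test without embryo 2, 4, 5 or 6, or when either adult was left out. After correction Gabpb1 was at 1.51 (adjusted p = 2.0e-04) and Ppargc1a at -2.17 (adjusted p = 0.0011). Of the 10 regulators, 2 were then higher in the embryo and 2 in the adult (24.8% and 23.4% of all genes tested).

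Other families of widely expressed genes were counted beside the 24.0% of all genes higher in the embryo and the 27.4% higher in the adult. Of 94 tested cytosolic ribosomal protein genes, 81 were higher in the embryo and 4 in the adult, with a median log2 fold change of 2.64, or 1.16 against genes of the same length. After correction these were 76 and 4 (24.8% and 23.4% of all genes tested). Many of them have pseudogenes, so their counts of uniquely mapped pairs are uncertain. Of 80 genes for subunits of oxidative phosphorylation, 75 were higher in the embryo and none in the adult. Their median was 1.96, or 0.59 against genes of their length. After correction 38 were higher in the embryo and 3 in the adult, with a median of 0.60. Of 38 genes for proteasome subunits, 30 were higher in the embryo and 2 in the adult (median 1.45, or 0.71), and after correction 26 and 3. Differences between the families were not tested.

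**Figure D5:**
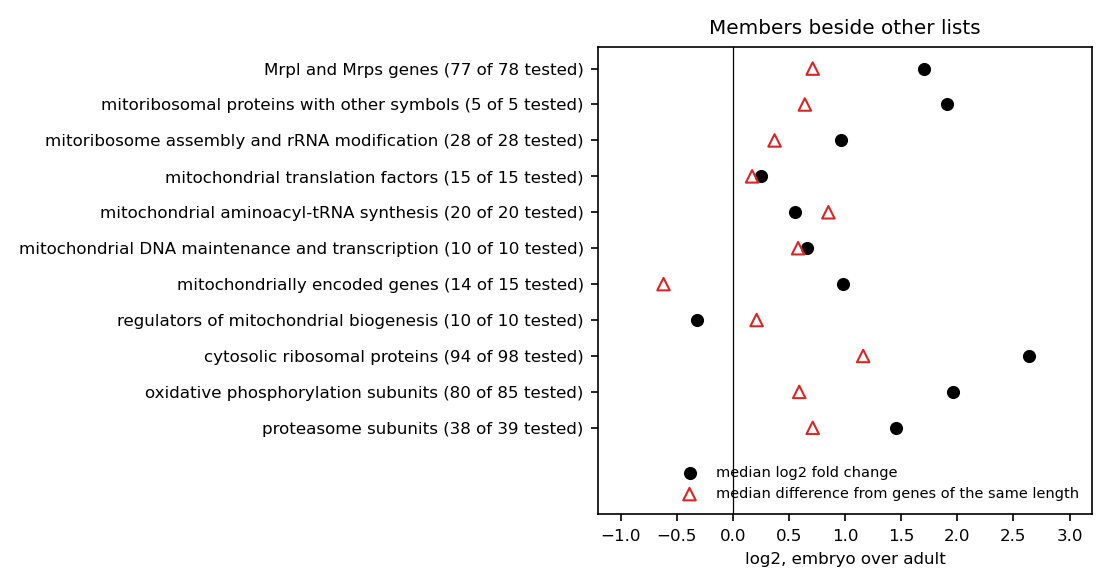
Median log2 fold change (filled circles) and median difference from genes of the same length (open triangles) of the members and of 10 other lists (cell type markers left out), in log2 units, embryo over adult. The members lie at 1.70 and 0.71, and the cytosolic ribosomal proteins lie at 2.64 and 1.16.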

How the data were processed

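Poly(A) RNA of 9 libraries was sequenced. Per the submitters' notes and the study's methods, the authors trimmed reads with Trimmomatic 0.39, mapped them to mm10 with STAR 2.7.5b and deposited STAR's count of uniquely mapped read pairs per gene (GRCm38, Ensembl 96). Column 4 was used, the strand of this library type, which held 94.8% to 95.6% of the stranded gene counts. Pairs mapping to several places (7.16% to 26.1%) or to overlapping genes (1.32% to 2.64%) are not in the counts.

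The filter was a mean count of 5 or more, and genes passing it were tested with edgeR 4.0.16 (glmQLFit, glmQLFTest, TMM, stage only, R 4.3.3), with Benjamini-Hochberg adjustment over all 19371 genes. DESeq2 1.42.0 was an alternative. CPM were TMM-scaled. SE is the absolute log2 fold change divided by the root of F. The procedure was tested on simulated data. For per-library log2 values 0.5 CPM was added. Correction offsets were natural splines (4 df) of log length and GC content, estimated from genes whose mean count was 50 or more.

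Named genes were, by rule, up to 8 of the largest changes that passed in each direction, the 5 members furthest above and below genes of their length, the 3 highest and lowest per kb, 11 members of known role or ancestry, members not passing the filter, and the leading genes of other lists. The members and lists were chosen with earlier results of these data known. Each library came from 1 animal, per the study's methods, and was the unit of the tests.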

Additional observations from a re-analysis of the deposited data

Results flagged for a closer look

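In 57 groups of 7 embryos (named genes, summary values and library measures), 4 had an extreme value whose gap to its neighbour, as a share of the group's range, exceeded the critical value of Dixon's test, where chance alone marks about 1 in 20. Mrps31 reached 56.4 CPM in embryo 6, and the gap was 0.65 of the range. In embryo 4, mt-Co3 reached 23.4 CPM (0.73 of the range). Gabpa reached 33.9 CPM in embryo 7 (0.73). The share of unmapped pairs was 10.3% in embryo 1 (0.59), against at most 4.74% in the others.

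The opposite strand at the members' exons, used only in the alternative with unstranded counts, held 2.7% of pairs in the median embryo, against 6.05% and 6.27% for adults 1 and 2. Over all genes the embryos had 4.51% to 5.17%, against 4.59% and 4.38% for adults 1 and 2. The largest shares among the members were those of Mrpl47 (71.9%), Mrps25 (44%) and Mrpl46 (39.7%).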

How the results depend on the processing

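The number of members called higher in the embryo, 27, ranged from 24 to 30 as each embryo was left out in turn (2113 to 2362 of all genes tested). It was 12 with library size only and 17 with the length and GC correction (1739 and 1627 of all 19371 genes tested). At a fold change above 2 it was 67. The share of all genes at that threshold is not given here, so 67 cannot be set against it. When edgeR's glmTreat tested the fold change against 4 it was 0, where 613 of all 19371 genes tested were higher in the embryo. At an unadjusted p below 0.05 glmTreat had 8 members, and the share of all genes there is not given either. The count of members called higher in the adult stayed 0 under every setting. Members higher in the embryo at an adjusted p below 0.05 numbered 72 with all libraries and at most 74 when an embryo was left out. In those fits without an embryo, 4396 to 5192 of all genes tested were higher there. The lowest counts came without adult 1 and adult 2, where the lone adult is assumed to vary like the embryos. Fewer of all genes tested passed there too. Members higher in the adult numbered 0 to 1 when a library was left out, and 1 with library size only and with the length and GC correction. The lone member was Mrpl1 with library size only (-0.98, adjusted p = 0.046) and Mrps12 with the correction.

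The median log2 fold change was 1.64 to 1.79 when a library was left out, and 0.74 with the length and GC correction. The median difference from genes of the same length was 0.67 to 0.77 when a library was left out, 1.17 with merged exon length and 0.93 with 1000 nearest genes. The offsets themselves take out what follows length and GC content. Library size only moved the median of all genes from -0.04 to -0.26.

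Alternatives chosen after seeing the data gave 15 called members with the correction without embryos 1 and 4, and 18 with the correction for the principal transcript. These alternatives called 1727 of 19508 and 1682 of 19371 genes tested higher in the embryo. Each gave 1 member higher in the adult (Mrps12), with median log2 fold changes of 0.77 and 0.86. The median difference was 1.26 with the shortest complete transcript, 0.85 with the principal transcript, and 0.67 against genes near in both length and mean CPM.

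With the replicate number as a block (replicate block), 25 members were called, 68 were higher in the embryo and 1 was higher in the adult (Mrpl1, -1.31, adjusted p = 0.0085). Of all 19371 genes tested, 1796 were called higher in the embryo, 3540 were higher there and 4176 were higher in the adult. The replicate numbers name different animals: deviations of same-numbered libraries correlated at 0.03 and 0.00, so the block is no pairing. With it the median of all genes was -0.20.

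Of the 51 named genes tested, 4 that passed the test without the correction changed direction with it, and only Mrps12 then passed in the other direction. Mrpl33 went to -0.12 and -0.14, Mrpl4 to -0.18, -0.08 and -0.13, Mrps12 to -0.54, -0.63 and -0.49, and Mrps18b to -0.12 and -0.07. Mrpl1, Mrpl10 and Ptcd3, which passed neither with nor without it, also crossed 0 (0.12, -0.10 and 0.23 with the length and GC correction). Over all settings, 938 of 1019 values kept their side of the threshold, 8 of them from these 3 genes with the sign changed. Of the rest, 62 no longer passed, 9 newly passed and 10 were the changes of direction of the 4 genes. The cause was not tested. Every tested member had at least 207 counts in each library. Some other named genes had few, such as mt-Nd3 at 0.218 CPM in adult 1, and depth limits their values.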
